A study of Gossypium barbadense and Gossypium hirsutum with 4 samples.

Results

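The subject here is a set of CENH3 ChIP islands with very dense input reads, called high-copy for that density alone. CENH3 is the histone H3 variant that marks active centromeres, and an island is a stretch in which the authors' caller found ChIP reads in excess of input reads. A member had at least 60 input reads per kb of island length, a ChIP to scaled input ratio below 4, and a midpoint more than 1 Mb from base 1 and from the end of the last island of its chromosome. The ratio is ChIP reads over input reads, with an input of under 3 reads counted as 3, times the library ratio of the list, 1.64 in Gossypium barbadense and 1.20 in Gossypium hirsutum. This gave 964 dense-input islands of 156610 in all, made up of 741 among 67639 G. barbadense islands (1.10%) and 223 among 88971 G. hirsutum islands (0.251%). Members were thus chosen by input density, ratio and position, so their values for these are descriptions and carry no test.

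The study mapped CENH3 to find the centromeres of these allotetraploid cottons, which carry 13 A and 13 D chromosomes. There were 4 libraries: a CENH3 ChIP library and a library made without antibody (the input) from G. barbadense, labelled Hai7124 in the deposited list, and the same pair from G. hirsutum, labelled TM_1. All came from leaves 4 weeks after planting, and chromatin had been cut with micrococcal nuclease (MNase). With 1 library per group there was no replicate error, no p-value was computed, and intervals cover counting error only.

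An input library samples the genome without selection for a protein, so its reads should lie fairly evenly over sequence present in the assembly in its true copy number. Reads crowd where the genome holds more copies than the assembly shows. Ribosomal DNA arrays, satellite repeats and organelle DNA inserted into chromosomes are textbook cases in plants. An immunoprecipitation also carries down some DNA that the target protein does not bind. No annotation of repeats or genes was assigned to any island, so "high-copy" describes read density and not a sequence that was identified.

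The dense-input islands were few and short, yet they held a sizeable part of the reads. In G. barbadense they held 138381 ChIP and 131334 input reads, which is 3.40% of the ChIP and 6.07% of the input reads in all islands of the list (95% exact binomial intervals 3.38% to 3.42% and 6.04% to 6.10%), on 0.495% of the island length. In G. hirsutum they held 194251 ChIP and 152006 input reads, 3.17% (3.15% to 3.18%) and 4.32% (4.29% to 4.34%), on 0.183% of the island length. Their median input density was 67.5 reads per kb in G. barbadense, against 18.8 in the other islands of the list, and 175 in G. hirsutum, against 17.5. The densest member reached 1317 reads per kb in G. barbadense and 1670 in G. hirsutum, 69.9 and 95.4 times the median of the other islands.

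The members were of very unequal kinds, and the kinds differed in number between the lists. In the classes below, whose bounds were chosen after the values were seen, 519 of the 741 G. barbadense members (70.0%) had 60 to 80 input reads per kb, and these held 9.93% of the members' input reads. Only 39 members (5.26%) had 500 or more reads per kb, and they held 54.2%. In G. hirsutum 63 of 223 members (28.3%) had 60 to 80 reads per kb and held 1.98%, whereas 51 members (22.9%) had 500 or more and held 71.2%. At 200 or more reads per kb the lists had nearly the same number, 106 in G. barbadense and 103 in G. hirsutum. Most of the difference in number lay below that density, where there were 635 G. barbadense and 120 G. hirsutum members.

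**Figure D1:**
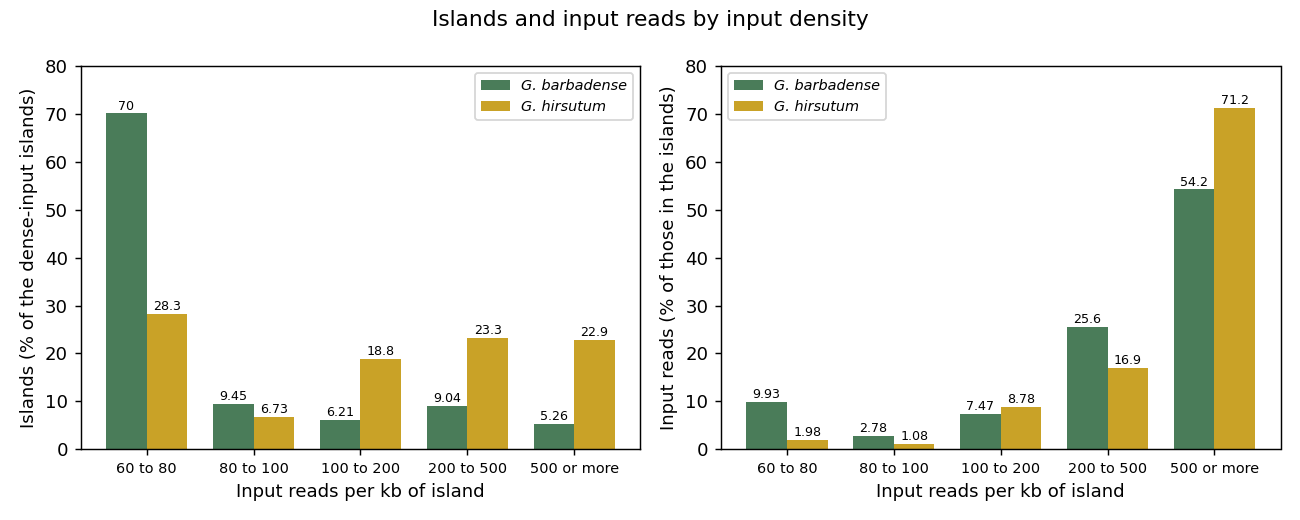
Share of the dense-input islands (left) and of their input reads (right) in classes of input reads per kb of island, for G. barbadense (n = 741 islands) and G. hirsutum (n = 223). The lowest class holds 70.0% of the G. barbadense and 28.3% of the G. hirsutum islands, and the highest class holds 54.2% and 71.2% of the input reads.

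Many of the less dense members were a single window of the caller. A window spans 200 bp, and 295 G. barbadense members (39.8%) and 38 G. hirsutum members (17.0%) were 1 window long, against 2.84% and 0.637% of the other islands. Such an island reaches 60 reads per kb with 12 input reads. Exactly 60 reads per kb was found in 170 members in G. barbadense and 19 in G. hirsutum, and 283 and 33 members had under 20 input reads. Just inside the threshold, first in chromosome order among these ties, lay 3 islands of 400 bp on G. barbadense A01, starting at 14127201, 16581201 and 21125401, with 25, 25 and 26 ChIP reads and 24 input reads each. Just outside it lay islands on A03 at 17856801, D05 at 50664401 and A11 at 57557001, with 72, 65 and 63 ChIP and 71, 71 and 59 input reads and densities of 59.2, 59.2 and 59 reads per kb. In G. hirsutum the first inside started on A01 at 33521401 and 68713401 and on A03 at 110177801, with 133, 25 and 21 ChIP and 60, 12 and 12 input reads. Just outside lay D11 30198801, A10 107141001 and D06 18579201, with 106, 240 and 45 ChIP and 95, 153 and 35 input reads and densities of 59.4, 58.8 and 58.3. Islands on either side of the limit were close in density. Read counts are whole numbers, so the density of short islands moves in coarse steps. Islands just below the limit therefore tend to be longer, and nothing is read from their length, reads or ratio. At the other extreme, 22 G. barbadense members of 1000 or more input reads held 54.1% of the members' input reads, and 36 such G. hirsutum members held 72.7%.

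Summed ChIP reads were less than 2 times the scaled input reads in these islands. Summed over the members, the ratio was 1.73 (95% interval 1.71 to 1.74) in G. barbadense, against 3.17 (3.17 to 3.18) in the other islands. It was 1.53 (1.52 to 1.54) in G. hirsutum, against 2.11 (2.11 to 2.12). By island the median ratio was 1.91 for G. barbadense (lowest 1.18, highest 3.96) and 1.59 for G. hirsutum (1.08 to 3.29). In G. barbadense 301 of 741 members (40.6%) had a ratio of 2 or more, against 68.0% of all islands, and in G. hirsutum 42 of 223 (18.8%) did, against 60.7%. The rule's upper limit of 4 bears on these ratios and shares. Islands of ratio 4 or more, 28.6% of all G. barbadense and 9.75% of all G. hirsutum islands, stay among those compared. Input reads also enter both the density limit and the denominator of the ratio, so nothing is read from these differences. In the authors' deposited table, 154 G. barbadense members (20.8%) had a false discovery rate of 1e-05 or less, against 56.7% of all islands, and 137 G. hirsutum members (61.4%) had one, against 70.1%.

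What ratio a member could have was bounded on both sides. Its p-value follows from its ChIP count, its input count and the library ratio, and all 639 G. barbadense and 126 G. hirsutum members whose p-value was above 1e-12 matched the Poisson probability of more ChIP reads than observed, to within 1%. The lowest ChIP count of any listed island, 15 in G. barbadense and 20 in G. hirsutum, was taken as a second bound. From both, an island with 12 input reads had to reach a ratio of 2.05 in G. barbadense and 2 in G. hirsutum to be listed. With 1000 input reads, 1.10 and 1.08 sufficed. Of the G. barbadense members, 389 (52.5%) held at most 2 ChIP reads more than the smallest count these bounds allow, and of the G. hirsutum members 39 (17.5%) did. Nearly all of these were less dense, and below 200 reads per kb they made up 387 of 635 G. barbadense members and 35 of 120 G. hirsutum members. Of the members at 200 or more reads per kb, 2 of 106 and 4 of 103 were that close to the limit. Members at 200 or more reads per kb had pooled ratios of 1.70 (1.68 to 1.71) in G. barbadense and 1.52 (1.51 to 1.53) in G. hirsutum. They held 79.8% and 88.2% of the members' input reads, so these ratios must lie close to those of all members. Below 200 reads per kb the pooled ratios were higher, 1.85 (1.82 to 1.88) and 1.63 (1.59 to 1.66). Input counts were mostly lower there, where the bounds ask for a higher ratio, and the part of this was not tested.

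**Figure D2:**
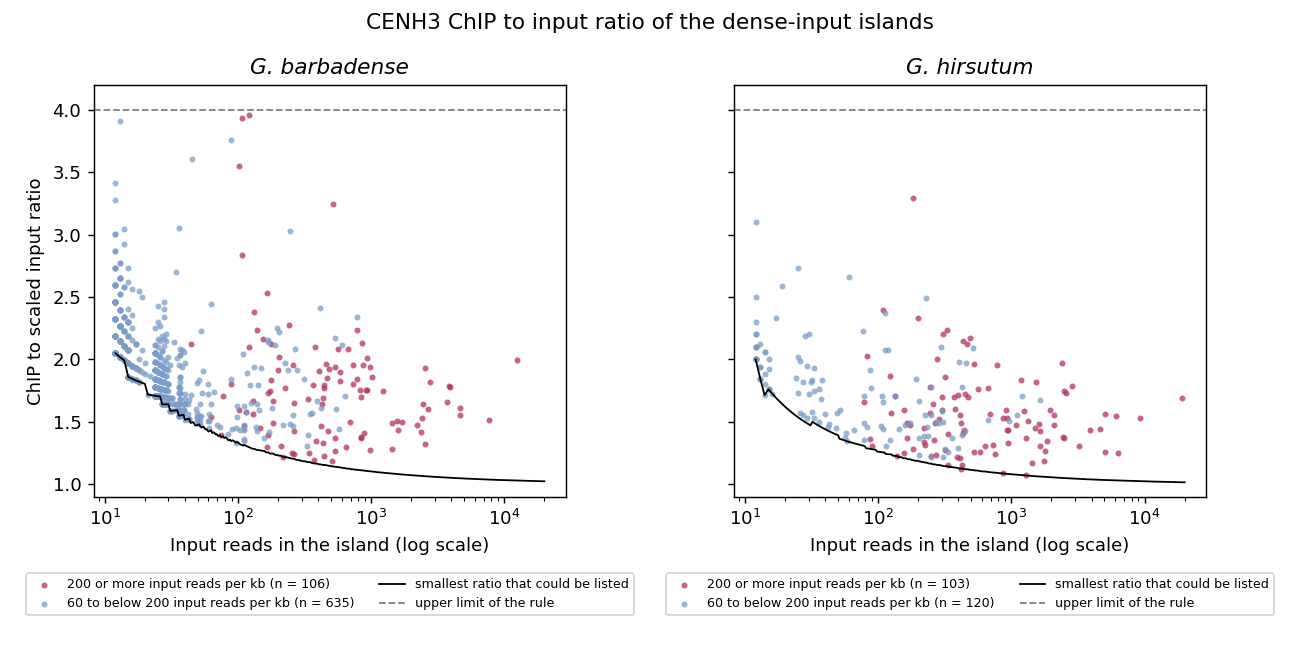
ChIP to scaled input ratio of each dense-input island against its input reads on a log scale, for both lists, with the smallest ratio that the highest p-value and the lowest ChIP count of the list allow at each input count (black line) and the rule's upper limit of 4 (dashed). Below 200 reads per kb, 387 of 635 G. barbadense but 35 of 120 G. hirsutum islands lie within 2 ChIP reads of the line, and islands at 200 or more reads per kb lie mostly above it, with ratios from 1.18 to 3.96 in G. barbadense and from 1.08 to 3.29 in G. hirsutum.

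Single islands show the range. The member with the most input reads in G. barbadense was A09 44232401 to 44248600, 16.2 kb long, with 15269 ChIP and 12553 input reads and a ratio of 1.99 (95% interval 1.95 to 2.04). It was also the longest. The next were A09 44255801 to 44265200, with 7141 ChIP and 7736 input reads, and D07 47771401 to 47781400, 10 kb long, with 4562 and 4654 reads. D04 18799601 to 18803200 held 4410 ChIP and 4646 input reads, and D02 37502601 to 37507400 held 4273 and 3934. Their ratios lay between 1.51 and 1.78, below that of the first. By density the first was A09 44288201 to 44290000, with 1317 input reads per kb (2055 ChIP and 2370 input reads). D04 18799601 to 18803200 followed at 1291 per kb, and a short island of 400 bp on A01, at 9469801 to 9470200, at 1100 per kb (329 and 440 reads). D01 55198001 to 55200000 had 1099.5 per kb and A09 44276801 to 44279400 had 1037 per kb.

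In G. hirsutum the member with the most input reads was A13 100987201 to 101000600, 13.4 kb long, with 27149 ChIP and 19279 input reads and a ratio of 1.69 (1.66 to 1.72). Of the next, A13 101009801 to 101016800 held 11883 ChIP and 9297 input reads, and A13 101001601 to 101007200 held 7912 and 6154. A06 15605201 to 15609200 held 6580 and 6326 reads, and D03 2429801 to 2433400 held 5318 and 5085, with ratios of only 1.25 (1.21 to 1.29) and 1.26 (1.21 to 1.30). The densest was A07 4961801 to 4962600, with 1670 input reads per kb (1679 ChIP and 1336 input reads). A06 15605201 to 15609200 came next at 1581.5 per kb. D13 47750201 to 47752800 had 1489 per kb, D06 9204001 to 9205200 had 1483 and A13 101008201 to 101009000 had 1464. The longest after the first were D04 34161001 to 34170200, of 9.2 kb, and D01 24760601 to 24769600, of 9 kb.

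The 3 highest ratios in each list belonged to members of at most 270 input reads per kb. In G. barbadense they were 3.96 (3.19 to 4.93) on D11 at 56050801 to 56051400 (292 ChIP and 121 input reads), 3.93 on D01 at 60099801 to 60100200 (259 and 108) and 3.91 on A13 at 106875801 to 106876000 (31 and 13). In G. hirsutum they were 3.29 (2.77 to 3.92) on D02 at 38335201 to 38336000 (499 and 182), 3.10 on D12 at 9230801 to 9231000 (31 and 12) and 2.74 on A01 at 57214201 to 57214600 (57 and 25). At 100 input reads the listing bounds asked for a ratio of 1.33 in G. barbadense and 1.26 in G. hirsutum, so lower ratios needed more reads. The lowest ratios accordingly came from islands with 162 or more ChIP reads. Among G. barbadense members they were 1.18 (1.03 to 1.36) on D04 at 18805001 to 18805800, 1.20 on A07 at 84961001 to 84962200 and 1.22 on A11 at 90459001 to 90459800. Among G. hirsutum members they were 1.08 (0.993 to 1.17) on A13 at 101020601 to 101021600, 1.09 on A11 at 19297601 to 19298800 and 1.13 on A01 at 2052801 to 2054800.

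Most members stood alone, but the reads were gathered in a few places. Members at most 100 kb apart were taken as 1 cluster, and islands of a cluster share their place and are not independent. The 741 G. barbadense members formed 642 clusters, of which 601 were single islands, and the 223 G. hirsutum members formed 182, of which 166 were single. The 41 G. barbadense clusters of more than 1 island held 18.9% of the members and 70.8% of their input reads. The 16 such G. hirsutum clusters held 25.6% of the members and 45.9% of the reads. A single cluster held 25.4% of the members' input reads in G. barbadense and 25.1% in G. hirsutum. Without it the pooled ratio was 1.72 and 1.51.

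The leading G. barbadense cluster lay on A09 at 44232401 to 44290000, where 13 members covered 42 kb of 57.6 kb. It held 35530 ChIP and 33393 input reads, a density of 795 input reads per kb and 42.2 times the median of other islands, at a ratio of 1.74 (1.72 to 1.77). Its members all had 325 or more reads per kb, and their ratios spread from 1.28 to 2.13. About 4 Mb away on the same chromosome, at 40502001 to 40533800, a second cluster had 8 short members that covered 4 kb of 31.8 kb, with 1521 ChIP and 1674 input reads. The island next to it, at 40534801 to 40535400, had 83.3 input reads per kb and was no member because its ratio was 4.49 (3.23 to 6.34). A09 as a whole carried 19 members of 200 or more reads per kb, more than any other chromosome of the list.

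The leading G. hirsutum cluster lay on A13 at 100985401 to 101021600, where 6 members covered 29 kb of 36.2 kb. It held 51100 ChIP and 38097 input reads, a density of 1314 input reads per kb and 75.1 times the median of other islands, at a ratio of 1.61 (1.59 to 1.63). The ratios of its members ran from 1.08 to 1.84, a spread well outside the counting intervals of the islands at either end, 0.993 to 1.17 and 1.71 to 1.98. The other G. hirsutum clusters named by their reads or size were smaller. A01 2052801 to 2064600 had 3 members with 6041 ChIP and 5102 input reads. D06 8290001 to 8320000 had 4 members with 3422 and 2561 reads.

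D04 carried a pair of large clusters in G. barbadense. At 18772001 to 18902600, 15 members covered 34.6 kb of 130.6 kb with 14184 ChIP and 12933 input reads, at a ratio of 1.80 (1.76 to 1.84). At 34504001 to 34567000, 6 members covered 24.2 kb of 63 kb with 10350 ChIP and 10126 input reads, at 1.68 (1.63 to 1.72). In the first the member density ran from 68.75 to 1291 reads per kb, in the second from 84.2 to 564. The other G. barbadense clusters named by size or reads were A03 91052401 to 91131400 (15 members, 5684 ChIP and 5496 input reads), A06 12637601 to 12764200 (6 members, 1510 and 1490) and D07 47771401 to 47786000 (2 members, 4581 and 4666).

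The split between subgenomes was not the same in the lists. In G. barbadense the A chromosomes carried 542 members (73.1%) and the D chromosomes 199, while A took 62.6% of all islands and 62.8% of the mapped length. Members per Mb averaged 0.399 ± 0.101 on A and 0.246 ± 0.116 on D (SD over 13 chromosomes), and were higher on A in 12 of 13 pairs of the same number, the exception being pair 4. That exception rests on clustered members, since the 30 on D04 formed 11 clusters and the 22 on A04 formed 20. Cotton A02 and A03, and A04 and A05, are known to have exchanged segments, so pairs 2 to 5 are not simple homoeologues. Over the other 9 pairs A was higher in 9. In G. hirsutum A carried 138 members (61.9%) and D 85, while A took 73.1% of all islands and 63.5% of the length. Members per Mb averaged 0.0960 ± 0.0455 on A and 0.104 ± 0.0551 on D, with A higher in 8 pairs and D higher in 5 (6 and 3 without pairs 2 to 5). This share on A lay below that of the length, but it rose above it at 40 reads per kb, to 70.0%. Per 1000 islands the G. hirsutum values were 2.10 ± 0.969 on A and 3.55 ± 1.83 on D, with D higher in 11 pairs (8 of 9 without pairs 2 to 5), and the G. barbadense values were 12.9 ± 3.18 and 7.88 ± 3.86, with A higher in 12. No test of these differences was made. The input density of islands that were not members was also higher on A in G. barbadense, but nearly equal on A and D in G. hirsutum. Its G. barbadense median was 20.6 reads per kb on A and 15 on D, its G. hirsutum median 17.5 and 17.4, and its part in the result was not tested. Among members of 200 or more reads per kb the lists were closer, G. barbadense having 69 on A and 37 on D (65.1% on A) and G. hirsutum 63 and 40 (61.2%).

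**Figure D3:**
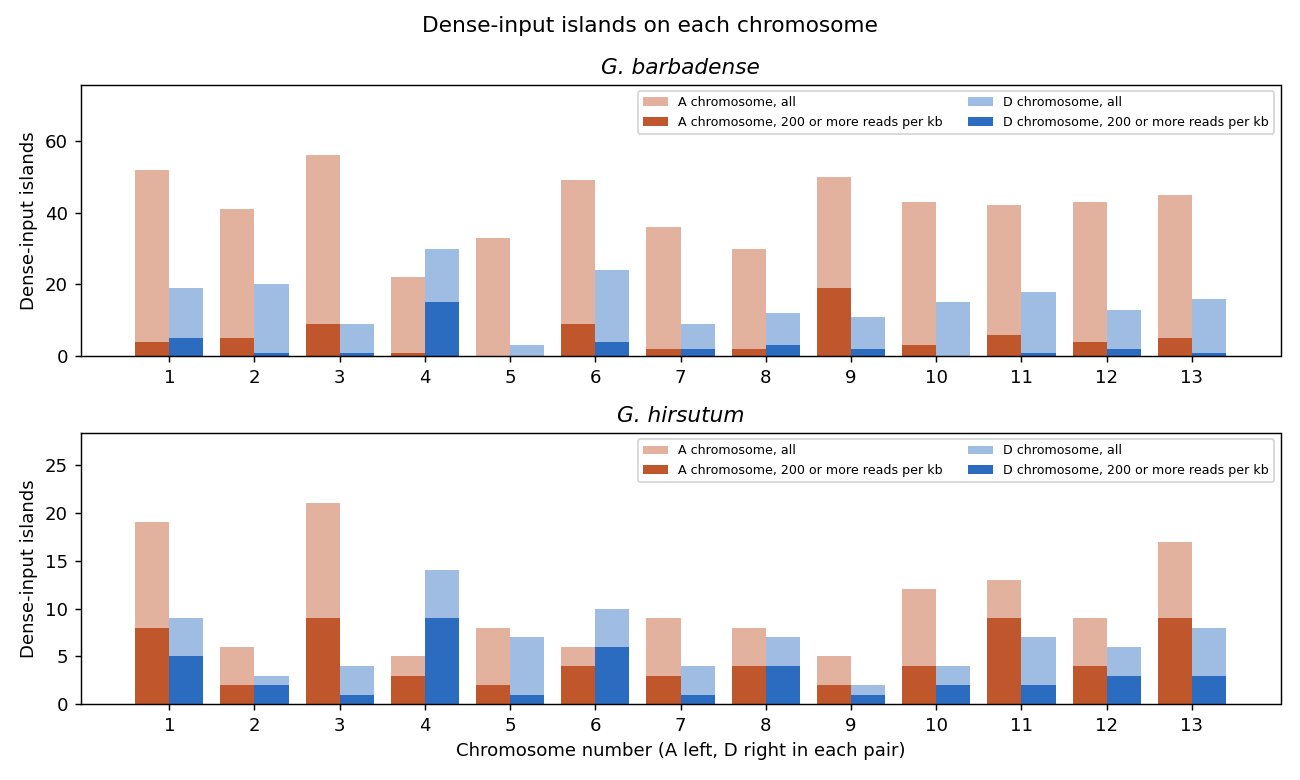
Number of dense-input islands on each A chromosome (left bar) and D chromosome (right bar) of the 13 pairs, in light colour for all members and in full colour for those of 200 or more input reads per kb. In G. barbadense the A bar is the higher in all pairs but pair 4; in G. hirsutum A03 has the most members (21) and D09 the fewest (2).

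Every chromosome carried at least 1 member in each list. The most in G. barbadense were on A03 (56), A01 (52) and A09 (50), and D05 had the fewest, with 3. The most in G. hirsutum were on A03 (21), A01 (19) and A13 (17), and D09 had 2. D04 had the highest number per Mb among D chromosomes in both lists, with 30 members (0.523 per Mb) in G. barbadense and 14 (0.246 per Mb) in G. hirsutum, and it was the D chromosome with the most members of 200 or more reads per kb, at 15 and 9. A04, its partner by number, had 22 (0.268 per Mb) and 5 (0.0570 per Mb). In G. barbadense the D04 members formed 11 clusters, while the 24 members on D06 formed 20, so the lead of D04 there rests on clustered members. By input reads the order was set by the leading clusters, and A09 held 36984 of the members' reads in G. barbadense and A13 held 43387 in G. hirsutum. In G. barbadense A05, D05 and D10 had no member of 200 or more reads per kb, whereas in G. hirsutum every chromosome had at least 1.

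Few dense-input islands lay inside the CENH3 sites, as was also true of other islands of low ratio. The CENH3 site of a chromosome was the place of highest length-weighted log2 fold among islands of the authors' fold of 4 or more. Only 3 of 741 G. barbadense members lay inside it (0.405%, exact interval 0.0836% to 1.18%), all short and under 200 reads per kb. They were A06 52309401 to 52309800, A09 19742401 to 19742600 and A11 67994801 to 67995000, with 41, 17 and 22 ChIP and 28, 14 and 12 input reads. Of the G. hirsutum members 0 of 223 did, which allows a share of up to 1.345% as 3 counts of 223, or 1.64% by the exact interval. The rule keeps out islands of high ratio, which fill these sites, so members were set beside other islands of ratio below 4 that also lay over 1 Mb from the ends. Of those, 0.415% in G. barbadense and 0.248% in G. hirsutum lay inside. The members' shares lay near these, so nothing particular to the members is read from them.

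Near the site lay a smaller share of the members than of other islands of low ratio. Inside or within 5 Mb of the site lay 13.6% of G. barbadense members (exact interval 11.2% to 16.3%), against 19.2% (18.9% to 19.6%) of the other islands of ratio below 4 and 13.6% of the chromosome length. In G. hirsutum it was 5.38% of members (2.81% to 9.21%), against 11.7% (11.52% to 11.97%) of those islands and 12.7% of the length. Of members with 200 or more reads per kb, 7.55% (3.31% to 14.3%) lay there in G. barbadense and 4.85% (1.59% to 10.97%) in G. hirsutum. Clustered members are not independent, so these intervals are too narrow. The median distance from the site was 19.6 Mb for members and 16.8 Mb for the other islands of ratio below 4 in G. barbadense, and 25.7 Mb and 20.9 Mb in G. hirsutum. On G. hirsutum D02 and D08 the site lay far from that of G. barbadense, and without both chromosomes the share within 5 Mb was 5.16%.

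**Figure D4:**
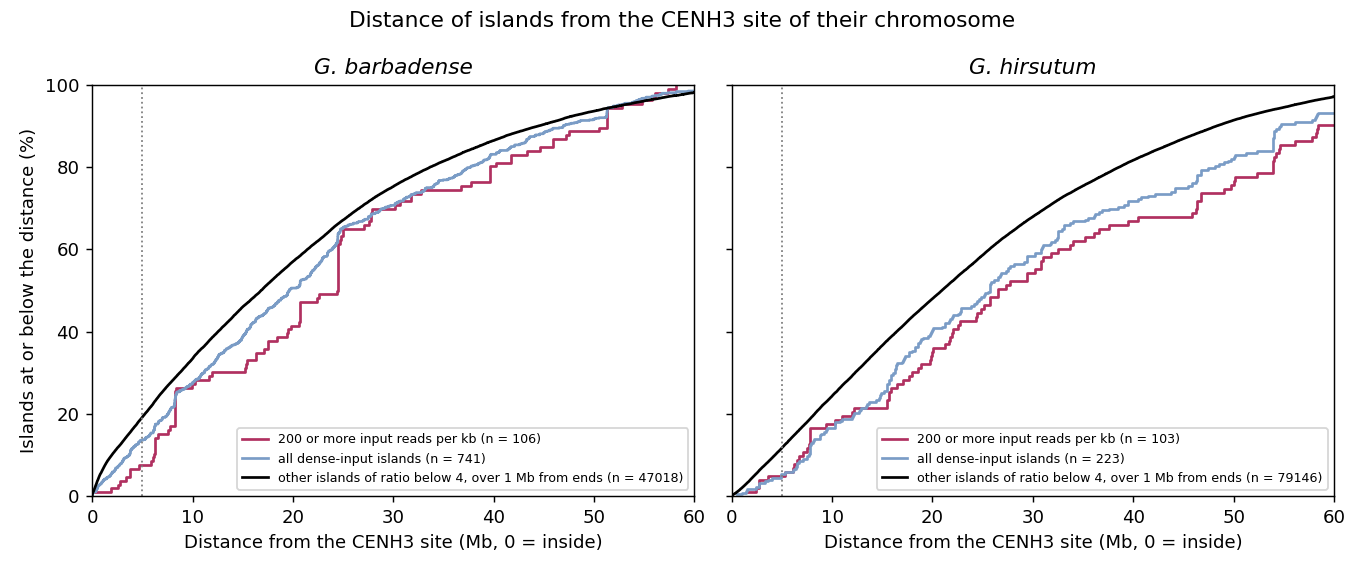
Cumulative share of islands by distance from the CENH3 site of their chromosome, for members of 200 or more input reads per kb, all dense-input islands, and other islands of ratio below 4 lying over 1 Mb from the ends. The dotted line marks 5 Mb, where the member curves stand at 13.6% in G. barbadense and 5.38% in G. hirsutum, and the other islands at 19.2% and 11.7%; the step near 24.4 Mb in G. barbadense is the A09 cluster of 13 islands.

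Islands beside the members that were not members themselves had input densities near those of the rest of the list. Such islands within 20 kb of a member had a median of 20.9 input reads per kb in G. barbadense (824 islands), against 18.75 in the islands farther off, and 18.5 in G. hirsutum (307 islands), against 17.5. Around members of 200 or more reads per kb the medians were 21.9 and 18.2. The neighbours' pooled ratio was 2.25 (2.22 to 2.29) in G. barbadense and 2.02 (1.98 to 2.07) in G. hirsutum, above that of the members. The rule caps these densities, since a neighbour with 60 or more reads per kb and a ratio below 4 is itself a member, so they do not show how far dense input reaches.

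Positions were also compared between the species. The lists are on different assemblies, so a cluster was placed by its midpoint as a percentage of the end of the last island, and clusters on chromosomes of the same name were called matched within 2 percentage points. Over all clusters, 196 of 642 G. barbadense clusters (30.5%) and 122 of 182 G. hirsutum clusters (67.0%) were matched, and the windows around the other list's clusters took 25.6% and 63.3% of the length open to members, so these shares lie near what the windows cover. For clusters with a member of 200 or more reads per kb, a class set after the values were seen, 24 of 64 G. barbadense clusters (37.5%, exact interval 25.7% to 50.5%) and 28 of 85 G. hirsutum clusters (32.9%, 23.1% to 44.0%) were matched, where the windows took 12.5% and 10.6%. Within 1 point it was 29.7% and 22.4%, where the windows took 6.69% and 5.45%. Clusters on a chromosome are few and not independent, and no test was made.

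Several counterparts were alike in length and density as well as in place. On D04 the cluster of 6 G. barbadense members at 34504001 to 34567000 lay at 60.2% of the chromosome, and a cluster of 6 G. hirsutum members at 34145001 to 34237600 lay at 60.1%. They covered 24.2 kb and 22.4 kb, held 10350 ChIP and 10126 input reads (G. barbadense) and 11811 and 8342 (G. hirsutum), and had 22.2 and 21.3 times the median input density of other islands. Their ratios were 1.68 (1.63 to 1.72) and 1.70 (1.65 to 1.75). On A03 the 15 G. barbadense members at 91052401 to 91131400 lay at 84.7%, and 11 G. hirsutum members at 95038601 to 95115000 lay at 85.2%. They covered 36.8 kb and 40.6 kb at 7.925 and 8.998 times the median density, with ratios of 1.70 (1.63 to 1.76) and 1.61 (1.56 to 1.66).

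Single islands had counterparts too. On D13 an island of 2.6 kb stood at 73.8% in G. barbadense (45177401 to 45180000, 2050 ChIP and 2538 input reads) and at 74.1% in G. hirsutum (47750201 to 47752800, 4640 and 3872 reads). On A08 an island of 0.6 kb stood at 1.06% in G. barbadense (308 ChIP and 258 input reads) and at 1.01% in G. hirsutum (365 and 287). On A11 an island of 0.8 kb at 54.7% in G. barbadense (468 ChIP and 403 input reads) had a counterpart of 1.2 kb at 54.65% in G. hirsutum (569 and 398). Other counterparts were unlike. On D06 a G. barbadense cluster of 2 members at 7912001 to 7919400 (12.6%) stood 44.1 times above the median density, with 4768 ChIP and 4655 input reads in 5.6 kb, and the G. hirsutum cluster of 4 members at 12.7% stood 12.2 times above it, with 3422 and 2561 reads in 12 kb. The same G. barbadense cluster also matched single G. hirsutum islands at 11.5%, with 50.1 times the median density, and at 14.1%, with 84.8 times. On A06 the G. barbadense cluster at 10.75% had 11.3 times the median density and the single G. hirsutum island at 12.3% had 90.4 times. In this way 29 pairs of dense clusters were formed, on 15 chromosomes. The density relative to the list's median differed by at most 2-fold in 21 of these pairs. The fold of G. barbadense over G. hirsutum in this density had a median of 0.881 (0.125 to 3.62). Both clusters of a pair had to hold a member above the same density limit, which restricts the range of their densities. The share within 2-fold was not computed for unmatched dense clusters. Nothing particular to the matched places is therefore read from this count. The ChIP to scaled input ratio is a separate measure. The ratio was higher in G. barbadense in 20 pairs and in G. hirsutum in 9. Over all members the pooled ratio was also higher in G. barbadense (1.73 against 1.53), so nothing particular to the matched places is read from this. A cluster can enter more than 1 pair.

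**Figure D5:**
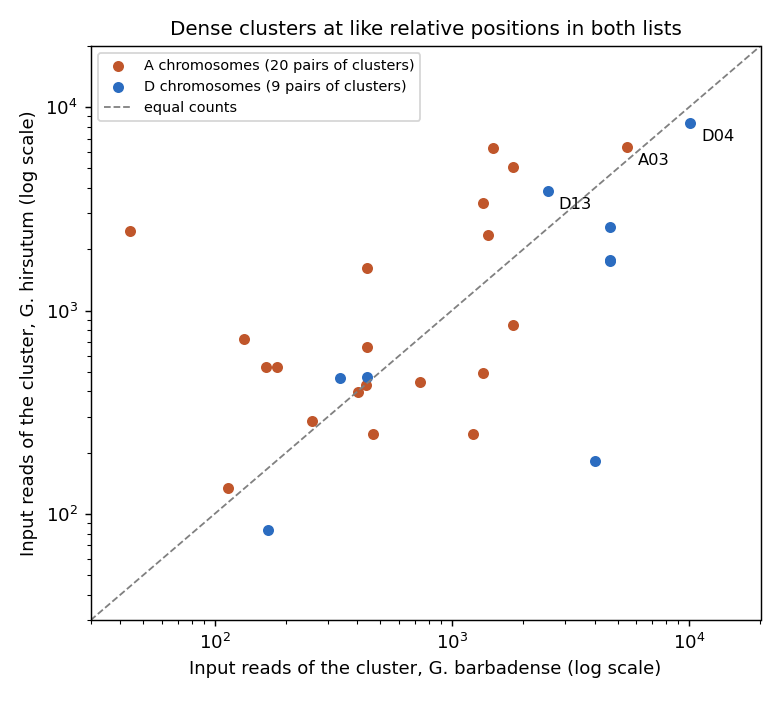
Input reads of dense clusters in G. barbadense (x axis) and of clusters at like relative positions on the same-named chromosome in G. hirsutum (y axis), both on log scales, for 29 pairs. The D04 pair (10126 and 8342 reads) and the A03 pair (5496 and 6393) lie near the line of equal counts, while other pairs lie far from it. Counts are raw and not scaled between the libraries, so the line is a guide only.

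The leading cluster of each list had no such counterpart. The nearest G. hirsutum cluster to the A09 cluster of G. barbadense lay 4.37 percentage points away, with 2 members and 96 input reads. Within 2 points of the A13 cluster of G. hirsutum there was a single G. barbadense member of 12 input reads. The first large D04 cluster of G. barbadense, at 32.8% of the chromosome, and the D07 cluster, at 83.6%, had no G. hirsutum cluster within 2 points. The lists hold called islands only, and dense input without an excess of ChIP reads would not be in them.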

How the data were processed

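CENH3 ChIP and input libraries from leaves of G. barbadense and G. hirsutum (1 of each per species, grouped by sample title) were taken from 2 deposited island lists. Per the submitters' processing notes, the authors used Trimmomatic, Bowtie2 and SICER; neither versions nor builds were given there. The list names record windows of 200 bp, gaps of 400 bp, a false discovery rate of 0.01 and the tag uniq, and if that means uniquely placed reads only, exact repeats would hold few reads. The lists have no header, and columns were read in SICER's usual order. Per island the authors deposited raw ChIP and input read counts, a p-value and a false discovery rate (q-value) of ChIP against scaled input, and a linear fold, the ratio of ChIP to input reads times a library constant. An input of 0 entered that fold as 0.25. The constant was recovered from the fold column and rounded to 2 decimals.

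Densities, ratios, clusters and positions were computed with Python 3.11.15, numpy 2.4.6, scipy 1.17.1 and pandas 2.3.3 and tested on simulated lists. Intervals are 95% exact binomial (Clopper-Pearson). They cover counting error only, as no molecular identifiers are recorded and reads may be PCR copies. The CENH3 site was found from islands of fold 4 or more in bins of 100 kb, with a running mean of 5 bins, a threshold at the median plus 25% of the way to the maximum, and gaps of up to 2 bins bridged. Library totals were not used here. The reads inside islands sum to 4068080 ChIP and 2164077 input in G. barbadense and 6132203 and 3522063 in G. hirsutum, and these are not depths. Coordinates are 1-based, on each list's own assembly. No genome of these assemblies was used here, so no sequence, gene or repeat is given. By rule, the text names in each list the 5 members of highest density, the 5 with most input reads, the 3 longest, those of the 3 highest and 3 lowest ratios, those nearest the threshold, the 5 clusters with most members and the 5 with most input reads, and the 3 chromosomes with most members. The 3 members inside CENH3 sites, the chromosomes with fewest members and the matched places were named after their values were seen. Members and rules were chosen with earlier results of these data known. Alternatives changed the density and ratio limits, the distance from the ends, the false discovery rate, the cluster gap, the site and the matching window.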

Additional observations from a re-analysis of the deposited data

How the results depend on the processing

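Of 142 alternative values, 75 stayed within the counting interval or within 1.5 times the main count and 67 moved beyond it. Every listed island had a ratio above 1, so no pooled ratio could cross 1 at any setting. Some orders between the lists turned. G. barbadense had more clusters than G. hirsutum in the main analysis and fewer at 100 and 200 reads per kb, at 50 input reads (116 and 124) and at a false discovery rate of 1e-05. Its share of matched clusters was the lower in the main analysis (30.5% and 67.0%) and the higher at those 4 settings. A matched share depends on the length that windows around the other list's clusters cover, and so on their number. That length was computed only for the main limits, within 2 points and within 1 point. At both it was also computed for clusters with a member of 200 or more reads per kb (12.5% and 10.6% within 2 points). Nothing about shared positions is read from the matched shares at the other settings given here and below. The G. hirsutum share on A, 61.9%, lay below the 63.5% of its length on A, but above it at 40 reads per kb (70.0%), at a false discovery rate of 1e-05 (65.0%) and at 50 input reads (64.2%). All values are given with G. barbadense first where both lists moved, and the cause of a move was not tested beyond what the setting itself changes. The number of members rested on the density limit. At 40 reads per kb there were 4678 members in G. barbadense and 1124 in G. hirsutum, with 11.8% and 5.03% of the in-island input reads, pooled ratios of 1.76 and 1.58, 3515 and 1021 clusters, and 82.4% and 98.0% of clusters matched. The share on A was 70.0% in G. hirsutum and the share within 5 Mb of the CENH3 site 17.1% in G. barbadense. At 100 reads per kb there were 152 and 145 members in 92 and 113 clusters, with 5.30% and 4.18% of input reads and 43.5% and 37.2% of clusters matched. In G. barbadense the ratio was then 1.71, the share on A 66.4% and the share within 5 Mb 7.24%. At 200 reads per kb, added after the data were seen, there were 106 and 103 members in 64 and 85 clusters, with 4.84% and 3.80% of input reads, ratios of 1.70 and 1.52, and 37.5% and 32.9% of clusters matched. In G. barbadense the share on A was 65.1% and the share within 5 Mb 7.55%. G. barbadense thus still had the more members at 100 and 200 reads per kb, by a small margin in number, and as a share of its islands 0.225% against 0.163% and 0.157% against 0.116%.

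A minimum of 50 input reads, also added after the data were seen, left 185 members in 116 clusters in G. barbadense, with a ratio of 1.71, 69.2% on A and 8.11% within 5 Mb. The lists then held 5.52% and 4.28% of input reads, with 44.8% and 40.3% of clusters matched. A false discovery rate of 1e-05 or less in the authors' deposited table left 154 and 137 members in 96 and 105 clusters, with 5.23% and 4.06% of input reads and 41.7% and 37.1% of clusters matched. The G. hirsutum ratio was 1.55, and in G. barbadense 65.6% lay on A and 10.4% within 5 Mb. With no limit at the chromosome ends the ratios were 1.45 and 1.42, the shares of input reads 13.4% and 8.33%, and 34.8% of G. barbadense clusters were matched. A limit of 2 Mb gave 6.01% of input reads in G. barbadense, and a ratio limit of 3 gave 6.01% and a pooled ratio of 1.71. Matching within 1 percentage point took 17.8% and 45.6% of clusters, and within 5 points 55.9% and 87.4%. Dropping the ratio limit, other cluster gaps, site definitions and the omission of D02 and D08 moved none of the values they were run on. No paired analysis was possible because each group has 1 library. For the same reason no library could be left out.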

Other observations

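Islands of the same input density crowded the ends of the chromosomes, which the rule leaves out. Within 1 Mb of base 1 or of the last island, 42 G. barbadense and 35 G. hirsutum islands had 60 or more input reads per kb and a ratio below 4. That is 55.0 per 1000 islands there in G. barbadense, against 11.1 per 1000 in the rest of the chromosomes, and 32.9 per 1000 in G. hirsutum, against 2.54. An island of this kind started at the first base of 25 of 26 chromosomes in G. barbadense and of 26 of 26 in G. hirsutum. Together the end islands held 117700 ChIP and 159189 input reads in G. barbadense, more input reads than the members, at a ratio of 1.21 (95% exact interval 1.20 to 1.22). In G. hirsutum they held 153076 ChIP and 141334 input reads, at 1.30 (1.29 to 1.31). The one with the most input reads was on A04 at 1 to 35000 in G. barbadense (6573 ChIP and 10379 input reads, ratio 1.04, 1.01 to 1.07) and on A12 at 1 to 32600 in G. hirsutum (10150 and 9208, ratio 1.32, 1.29 to 1.36).

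A few islands of high input density had a ratio the rule bars. Of the islands with 60 or more input reads per kb, 4 of 787 G. barbadense and 1 of 259 G. hirsutum islands had a ratio of 4 or more (0.508% and 0.386%), against 28.6% and 9.75% of all islands. Input reads enter both the density and the denominator of the ratio, and nothing is read from this difference. In G. barbadense A09 19581401 to 19584400 (690 ChIP and 208 input reads, ratio 5.44, 4.65 to 6.38) and D08 27640801 to 27641000 (41 and 12 reads, ratio 5.60, 2.89 to 11.7) lay inside the CENH3 site. The other 2, on A09 at 40534801 to 40535400 (137 and 50 reads, ratio 4.49) and on D08 at 38431601 to 38432200 (108 and 36 reads, ratio 4.92), lay 20.7 and 10.6 Mb from it. The G. hirsutum island was on A13 at 45187601 to 45188200 (131 and 37 reads, ratio 4.25, 2.93 to 6.30), 10.3 Mb from the site.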
